A study of Daphnia magna with 15 samples.

Results

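The gene models described here are those of the water flea Daphnia magna that were read deeply in many bisulfite libraries and in which no methylated cytosine was recorded in any of them. A gene model is a predicted messenger RNA. A call is taken here as 1 reading of a cytosine position in 1 sequencing read, though how positions were summed is not given. A gene model counted as covered in a library when it had 10 or more calls there (its call total is written N). Models were kept when they were covered in 6 or more libraries, when their median N over the covered libraries was 100 or more and under 500, and when the methylated count was 0 in every covered library. The members were thus chosen by their N and their methylated counts over all libraries, and the rule found 4334 of the 25092 gene models listed in any library. It was applied stepwise. Coverage in 6 or more libraries left 17979 models, a median N of 100 or more left 7132, and a median N under 500 left 5988. Of these 5988 models of the same coverage, 4334 had no methylated call and 1654 had some.

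DNA was taken from adult females. Of the 15 libraries, 12 were labelled salinity and 3 control. The salinity label goes back to founders kept at 4.1 g/L NaCl and the control label to founders without added NaCl, with 3 founding cultures for each exposure and 6 in all. Rearing was at 20 °C under 16 h light and 8 h dark, later generations were raised in control medium up to generation 4, and the labels give neither the generation nor the culture of a single library. A salinity library may therefore come from exposed animals or from their unexposed descendants. Each library was genomic DNA cut with the enzyme MspI, which recognises CCGG, and treated with bisulfite, which leaves methylated cytosines unchanged and converts unmethylated ones.

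DNA methylation in many invertebrates, Daphnia among them, is sparse and lies mostly on CpG sites in the bodies of a subset of genes, while most other genes carry little or none. In arthropods that have such methylation, the methylated genes tend to be broadly and steadily expressed ones, and the enzymes that place and copy the mark are DNA methyltransferases. Genes without the mark are the larger class in such genomes. The identifiers of the gene models are not paired with gene names here, since none of them (0 of 25092) was found among the 28335 reference genes, so no function is given for any of them.

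A recorded 0 does not mean that no methylated call occurred. Methylated counts of 1 and 2 were found in 2 and 6 listings over all libraries (a listing is 1 gene model in 1 library), against 4530 with a count of 3. The lowest methylated count that recurred was 4 in salinity replicates 9, 11 and 12 and control replicate 3, and 3 in the 11 other libraries. This lowest count divided by N is given as a nominal smallest level. Whether small counts became 0 before or after positions were summed is not given in the sources used here. Since that is not known and lower counts were recorded in a few listings, the level is no detection limit. In the deepest covered library of each never-methylated model the nominal level had a median of 1.23%. Its quartiles were 0.862% and 1.68%, and its range was from 0.0768% to 2.91%. For 1505 of the 4334 models (34.7%) it was 1% or less. Over all their covered listings, shallow ones included, the median was 1.80% and the highest 40%. The phrases never methylated, unmethylated and no methylated call thus stand for few methylated calls or none, and no upper limit was derived from the zeros. They hold only for the cytosine positions that were read in these MspI-cut libraries. Other positions of the same gene model may be methylated.

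Libraries held 1250901 to 2905380 calls and 8053 to 18896 listed gene models. In the 5988 models of the same coverage, 1.61% and 1.95% of covered listings were methylated in salinity replicates 11 and 12, 4.99% in salinity replicate 9 and 4.05% in control replicate 3, the libraries whose lowest recurring count was 4. The 11 others stood at 6.40% to 11.5%. The part of these 4 libraries in the results was not tested, and results between groups are also given without them.

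The never-methylated models made up 72.4% of the models of their coverage (4334 of 5988, exact Clopper-Pearson 95% interval 71.2% to 73.5%). Counting error alone enters such intervals, and gene models are not replicates. The zeros chose the models, so this share and those that follow by depth are descriptions. Across the models' own libraries the zeros covered 34772 listings and 7285106 calls. A model had a median of 1399.5 calls summed over its covered libraries, with quartiles of 1001 and 2126 and a range from 530 to 16003. Depth differed little from that of the 1654 methylated models. The median of the median N was 175.5 in the never-methylated and 173.8 in the methylated models, the median sum of calls was 1399.5 and 1388.5, and both were covered in a median of 7 libraries.

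The share without methylation changed little with depth up to a median N of 500. Among models covered in 6 or more libraries, it was 75.4% at a median N from 10 to under 25 (1654 of 2193) and 74.5% from 25 to under 50. It was 71.4% from 50 to under 100 and 72.4% from 100 to under 150. From 150 to under 200 it was 70.6%, and from 200 to under 300 it was 74.7%. Models at 300 to under 400 stood at 71.5% and those at 400 to under 500 at 71.9% (287 of 399, interval 67.2% to 76.3%). Above the range of the rule the share was lower, at 67.3% from 500 to under 1000 (509 of 756, interval 63.9% to 70.7%) and 37.6% at 1000 or more (146 of 388, interval 32.8% to 42.7%). The models at the limits were alike on both sides. At a median N from 100 to under 101, 42 of 61 models had no methylated call, against 43 of 60 from 99 to under 100, and 21 of 31 from 490 to under 500, against 18 of 25 from 500 to under 510.

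**Figure D1:**
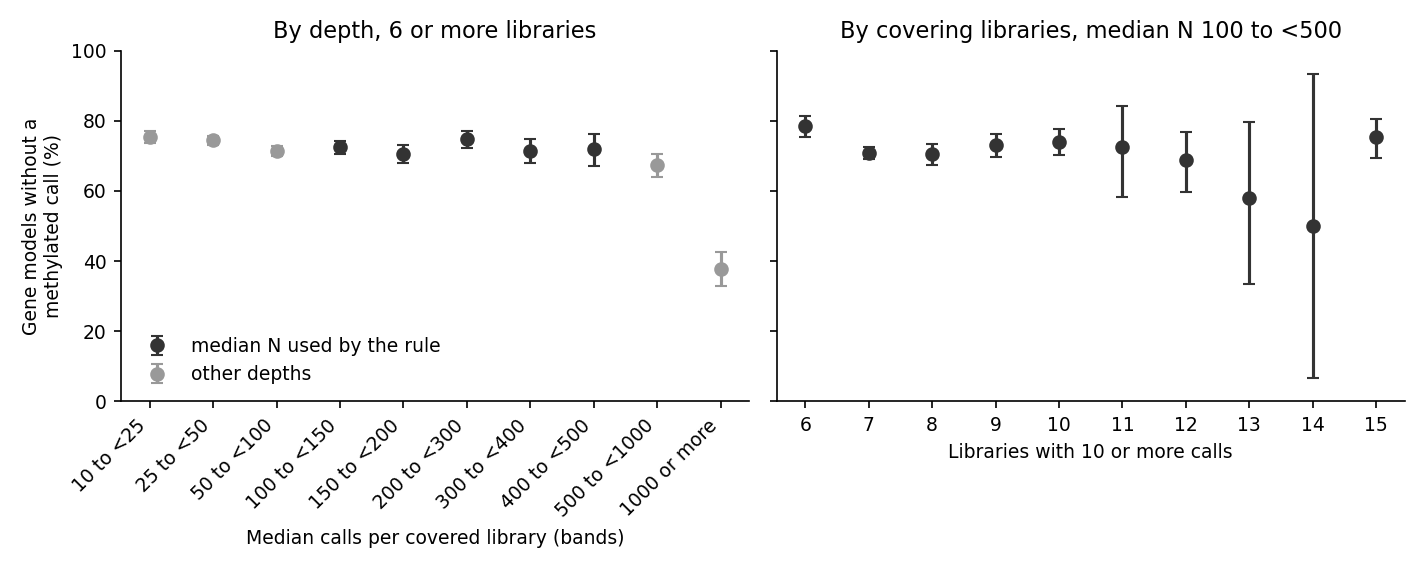
Percent of gene models without a methylated call in any covered library, by band of median calls (left) and by number of covering libraries at a median N of 100 to under 500 (right); points are shares and bars exact 95% intervals. The 8 bands below 500 calls lie between 70.6% and 75.4%, and the band of 1000 or more lies at 37.6%.

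Single listings showed a similar course. A methylated count was present in 6.26% of listings with an N from 10 to under 25, in 8.73% from 50 to under 100, in 8.74% from 100 to under 200 and in 7.77% from 200 to under 500, over all gene models. It was present in 9.05% of listings from 500 to under 1000 and in 24.3% at 1000 or more (915 of 3761). The median methylated count was 4 in each of the 6 bands from an N of 10 to one of under 1000, and 7 at 1000 or more. A median of 4 lies at or next to the lowest recurring counts of 3 and 4. Its constancy may therefore come from the near absence of smaller counts, and is not read as a trait of methylation. The median level of the methylated listings was accordingly 26.1% at the shallowest band and 1.5% from 200 to under 500.

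The share without methylation showed no steady course with the number of covering libraries. At a median N of 100 to under 500, the share without methylation was 78.5% in models covered in 6 libraries (591 of 753, interval 75.4% to 81.4%). In those covered in 7 it was 70.8% (1850 of 2614, interval 69.0% to 72.5%). Of the 753 models, 536 were covered in the same libraries, salinity replicates 2, 8, 9, 10 and 11 and control replicate 3, with a share of 79.3%. Salinity replicates 9 and 11 and control replicate 3 are among the libraries whose lowest recurring count was 4. The part of this pattern in the step from 6 to 7 libraries was not tested. With 8, 9 and 10 covering libraries it was 70.5%, 73.0% and 74.1%. Few models were covered in 11 to 14 libraries, with shares of 72.5% (37 of 51), 68.9% (84 of 122), 57.9% (11 of 19) and 50% (2 of 4). Models covered in all 15 stood at 75.3% (180 of 239, interval 69.3% to 80.6%). Just outside the rule, models covered in 5 libraries stood at 75.7% (574 of 758) and those covered in 4 at 80.3% (425 of 529). Of the covered listings, 6.68% were methylated in models with 6 libraries, 9.23% with 7, 8.44% with 8, 6.48% with 10 and 4.27% with 15. Both coverage measures together gave shares from 70.0% (10 to 14 libraries, median N 100 to under 200) to 75.7% (10 to 14 libraries, median N 200 to under 500) in the 8 combinations within the rule's depth.

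Within the same models the share without methylation can only fall or stay as more libraries are read, and the size of the fall is given here as a description. Averaged over all sets of covering libraries of a given size, 92.0% of the 5988 models had no methylated call when 1 library was read, 82.7% with 3 and 75.3% with 6. In the 239 models covered everywhere it was 95.7% with 1 library, 84.1% with 6, 79.3% with 10 and 75.3% with 15. The decrease from 14 to 15 libraries was from 76.0% to 75.3%, so the curve had become shallow and had not become level.

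**Figure D2:**
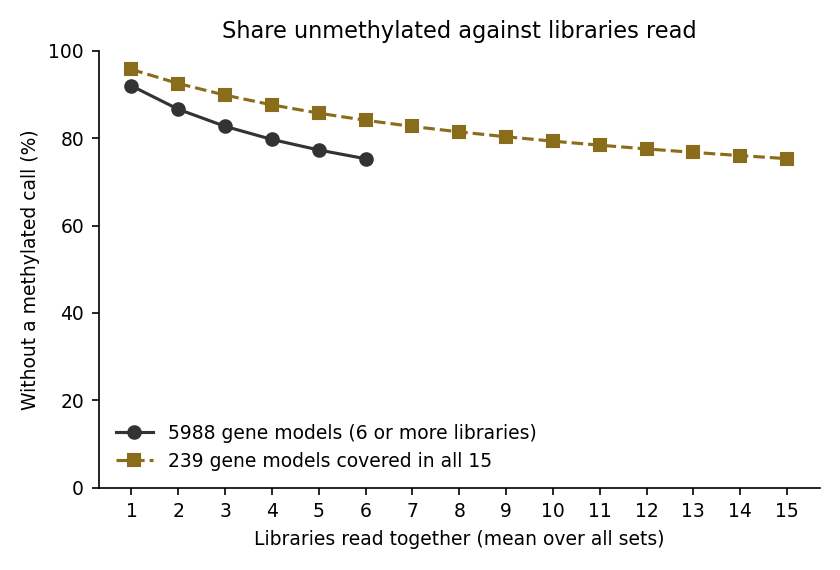
Percent of gene models without a methylated call against the number of covering libraries read together, averaged over all sets of that size, for the 5988 models of the coverage and the 239 covered in all 15 libraries. The curve of the 239 runs from 95.7% with 1 library to 75.3% with 15.

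The models nearest to the rule's zero were methylated in a single covered library. They numbered 726, or 43.9% of the 1654 methylated models, and 341 more were methylated in 2 libraries. In 526 of the 726 (72.5%) the methylated count in that library was at most 4, and in 298 (41.0%) it was that library's lowest recurring count. Their level in the single library had a median of 2.12% and ran from 0.218% to 72.7%. The single library was a salinity one in 564 and a control in 162 models (22.3%), while controls held 22.2% of the covered listings of this coverage. The 3 with the lowest pooled level show how small the step across the limit was. Dapma7bEVm011214t1 had 3 methylated calls of 484 in salinity replicate 2 and 0 in its other 14 libraries, over 5373 calls. Dapma7bEVm010335t1 had 3 of 383 in salinity replicate 1, over 5014 calls in 9 libraries. Dapma7bEVm014947t1 had 3 of 1379 in control replicate 1, over 5398 calls in 9 libraries.

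The deepest never-methylated models carried between 6323 and 16003 calls without a recorded methylated count. Dapma7bEVm000602t1 was covered in all 15 libraries with 7703 calls. Its N ran from 404 to 689 with a median of 485 in the 12 salinity libraries, against 617, 555 and 429 in the 3 controls. The groups overlapped. Dapma7bEVm009897t1 had 7364 calls in 15 libraries, with an N from 357 to 634 (median 497) in salinity libraries, against 545, 568 and 459 in controls. Dapma7bEVm003021t1 had 6660 calls, with 222 to 621 (median 455.5) in salinity libraries, against 432, 565 and 318 in controls. Here too the control values lay inside the range of the salinity values. Dapma7bEVm644513t1, covered in 13 libraries, had 6323 calls, with 182 to 1130 (median 380) in its 10 salinity libraries, against 774, 377 and 388 in controls. These last 2 models were deposited at different positions in different libraries.

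The model with most calls, Dapma7bEVm630061t1, was unlike these. Its 16003 calls over 15 libraries came mainly from 4 of them, with 3072, 3844 and 3951 calls in salinity replicates 1, 9 and 12 and 3906 in control replicate 2. The 9 other salinity libraries had 54 to 215 calls, and control replicates 1 and 3 had 82 and 110. Its median N was 125, and the high libraries were of both labels.

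Its deposited position was the same in every library. Such jumps were rare, and most of the models with one had a change of position. The highest N of a never-methylated model was a median of 2.04 times its lowest, with 1.52 and 3.27 as 10th and 90th percentiles and 79.8 as the highest. In 30 of the 4334 (0.692%) the sorted N values held a gap of over 5 times between neighbours, and in 26 of these 30 the deposited position of the model differed between libraries. Among the 1654 methylated models such a gap was present in 21 (1.27%). Of all never-methylated models, 178 (4.11%) had 2 positions, against 80 of the 1654 methylated models (4.84%). For the 172 with covered libraries at both positions, mean N differed between the positions by a median of 1.64 times and by over 2 times in 64. Another 106 never-methylated models shared identical counts in every library with at least 1 other, in 50 groups of up to 4. Whether they share reads was not tested. Counting each group once left 4278.

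The models were covered in blocks of libraries. They fell into 141 patterns of covering libraries. The most common held 609 models (14.1%), covered in salinity replicates 1, 4, 7, 8, 9 and 10 and control replicate 1, and 69.0% of the 883 models with that pattern were never methylated. The second held 425, covered in salinity replicates 2, 8, 9, 10 and 11 and control replicate 3, at 79.3% of 536. The third held 383, covered in salinity replicates 5, 6, 8 and 10 and all 3 controls, at 73.0% of 525. Over the 22 patterns with at least 50 models of the coverage, the never-methylated share ran from 62.3% (33 of 53) to 81.3% (65 of 80), with a median of 72.5%. All 3 controls covered 1447 of the 4334 models, 2 controls 552, 1 control 2298 and no control 37, so for most of the models the zeros rest largely on salinity libraries. Controls were 3 of the 15 libraries and held 22.2% of the covered listings of all 5988 models of the coverage. The counts by number of controls were not made for the methylated models, so they are not read as a trait of the never-methylated ones.

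The coverage of these models under both labels is a description, since their N values chose them, and no p is given for it. Salinity libraries covered 52.0% ± 13.8 of the 4334 models (SD, n = 12), from 28.7% in replicate 12 to 79.0% in replicate 8, and controls covered 59.6% ± 4.21 (SD, n = 3), at 63.0%, 54.9% and 60.8%. The difference was -7.58 percentage points, and the controls lay inside the salinity range. The methylated models of the same coverage had the same course, at 52.2% ± 14.01 in salinity and 59.0% ± 5.57 in control libraries (SD, n = 12 and 3). Numbers in the library titles form 3 bands (1–5, 10–14 and 17–21), whose meaning the labels do not give, with 4 salinity libraries and 1 control in each. Within the bands the difference in coverage was -5.38, -1.21 and -16.2 percentage points. Without the 4 libraries of lowest count 4 the difference was -10.8.

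The part of all calls that fell in the never-methylated models is likewise a description. They held 23.8% ± 2.49 of a salinity library's calls (SD, n = 12; 19.1% to 28.7%) and 23.9% ± 1.47 of a control library's (SD, n = 3; 22.3% to 25.1%). The difference was -0.155 percentage points, and within the title bands it was 0.446, 1.40 and -2.31. Without the same 4 libraries it was -0.476. When models covered in 4 or more libraries were admitted, the difference was -2.48 percentage points, so its size moves with the coverage rule. The median N of a covered model was 140 to 229 in salinity libraries and 173 to 187 in controls.

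**Figure D3:**
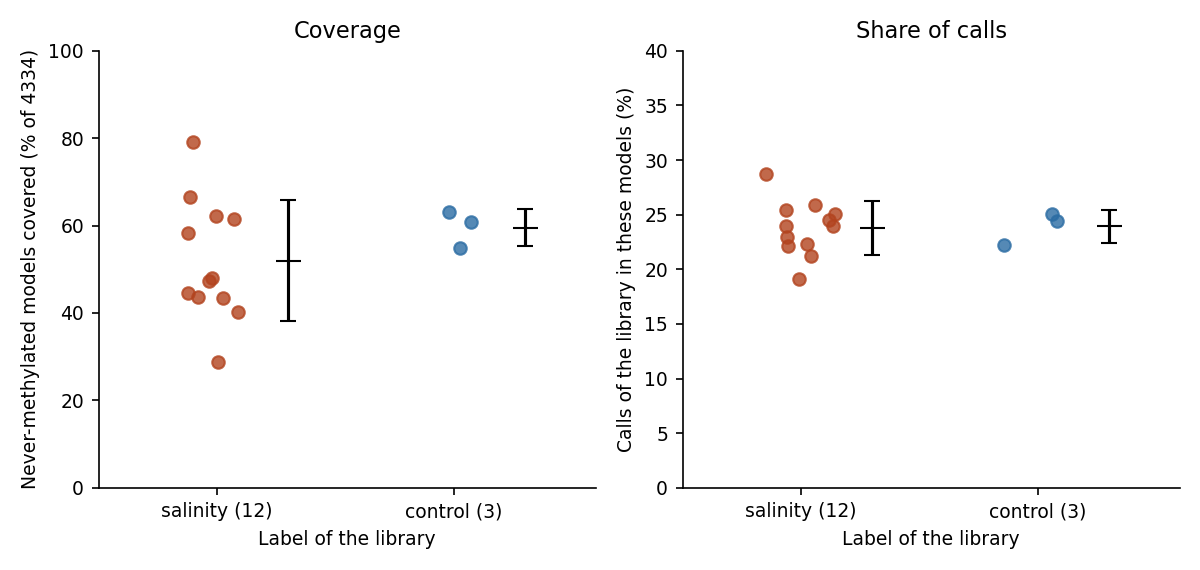
Left, percent of the 4334 never-methylated gene models covered in each library; right, percent of each library's calls that lie in them; points are libraries, with mean and SD beside them. The 3 controls lie inside the range of the 12 salinity libraries in both panels.

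Because the zeros chose the models, methylation under the 2 labels can only be read in libraries that did not choose them. The rule was therefore applied to 14 libraries at a time and the models found were read in the library left out. Of models without methylation in the others, a median of 1.84% were methylated in the library left out (0.395% to 3.20% over the 15 libraries; 631 of 31717 readings). Of models methylated in 1 other library the median was 12.5% (1.91% to 19.5%; 595 of 5192 readings), and of those methylated in 2 or more it was 38.3% (6.46% to 48.1%; 2172 of 6466). This order held in each of the 15 libraries, the 4 with a lowest recurring count of 4 included. As each pair of libraries is used for choosing and for reading in turn, no p is given for it.

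The share of such newly methylated models did not differ between the labels beyond the spread of libraries. It was 1.88% ± 0.829 in salinity libraries (SD, n = 12; lowest 0.395%, median 1.76%, highest 3.20%) and 2.00% ± 0.855 in control libraries (SD, n = 3), with 2.12%, 2.78% and 1.09% in control replicates 1, 2 and 3. The difference of -0.119 percentage points lay inside the spread of each group (p = 0.842, two-sided exact permutation over 455 splits). Within the title bands it was 0.234, -0.832 and 0.242, with opposite signs. Without the 4 libraries whose lowest recurring count was 4, the difference was -0.796 (exact permutation p = 0.109), with 9 salinity libraries and 2 controls. Leaving out salinity replicate 12 turned it to 0.0954, salinity replicate 3 to 0.0738 and control replicate 2 to 0.220, so the direction changed with single libraries. This was the only test between the labels. The smallest p that 3 against 12 libraries allow is 0.00220. With 3 founding cultures for each exposure, the 12 salinity libraries cannot all come from separate founding cultures. The labels do not give the culture of a library, so these p-values measure only the spread between libraries, which may be partly technical.

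**Figure D4:**
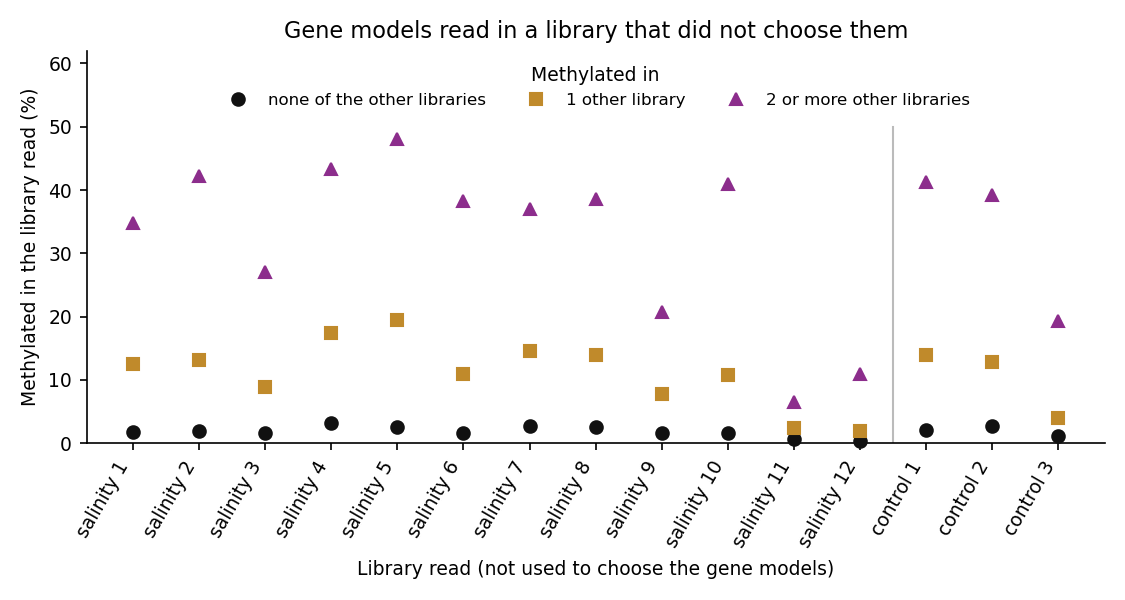
Percent of gene models methylated in a library that was not used to choose them, split by whether they were methylated in none, 1, or 2 or more of the other 14 libraries; salinity libraries are on the left and controls on the right. In each library the models unmethylated elsewhere are the lowest, at 0.395% to 3.20%.

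Choosing the models in 1 group and reading them in the other gave the same order. Of 3602 models covered in 2 or 3 controls at a median N of 100 to under 500, 3059 (84.9%) were unmethylated in the controls and 543 methylated in at least 1. In salinity libraries, 3.54% ± 1.45 of the unmethylated and 26.8% ± 10.8 of the methylated ones were methylated (SD, n = 12 each). The share was lower for the unmethylated models in 12 of 12 salinity libraries, with 0.772% to 5.34% against 7.11% to 41.0%. The difference was -23.3 percentage points (two-sided paired exact permutation test over 4096 sign changes, p = 0.000488, the smallest it can give). All 12 libraries read the same split of models and cannot all come from separate founding cultures. This p therefore reflects only that the difference had the same sign in all 12 libraries, and is no independent support for the zeros. In the other direction, of 3270 models unmethylated in their covered salinity libraries, 2.29%, 3.04% and 0.980% were methylated in control replicates 1, 2 and 3. Of 1148 models methylated in at least 1 salinity library the shares were 29.5%, 28.3% and 13.8%. With 3 controls the paired exact test cannot go below p = 0.25.

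Listings under 10 calls were not used by the rule and gave a further reading. The 4334 models had 330 such listings in 153 models, and 0 of them carried a methylated count. Among the 1654 methylated models of the same coverage it was 1 of 139, and over all gene models 521 of 19253 (2.71%). With fewer than 10 calls a methylated count of 3 is already a level of at least 33.3%, so these listings bear on high levels of methylation only. With 1 methylated listing among the models of the same coverage, they cannot tell the never-methylated from the methylated models.

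The number in the identifier, which the rule did not use either, went with different shares. What this number stands for is not given in the sources used here. Below 5000, 908 of 1602 models of the coverage had no methylated call (56.7%, interval 54.2% to 59.1%). From 5000 to under 10000 it was 620 of 889 (69.7%), and from 10000 to under 20000 it was 880 of 1126 (78.2%). From 20000 to under 40000 it was 1270 of 1525 (83.3%, interval 81.3% to 85.1%). A separate block of identifiers, all above 600000, had 656 of 846 (77.5%). Coverage differed less between these bands. The median number of covering libraries was 7 in every band, and the median of the median N was 163 below 5000 and 185 at 20000 to under 40000. At a median N of 100 to under 200 the shares in these 2 bands were 53.6% and 85.0%, and at 200 to under 500 they were 62.4% and 81.1%. The block above 600000 stood at 82.3% (interval 78.6% to 85.6%) and 71.0% (66.0% to 75.7%) at these 2 depths. The contrast between the bands below 5000 and from 20000 to under 40000 was present in each of the 15 libraries. The bands in between did not fall in order in every library. The methylated counts are the same ones that gave the shares, so this is a breakdown by library and no separate support. Methylated were 2.95% to 18.9% (median 14.6%) of the covered models below 5000, and 1% to 7.10% (median 4.40%) of those from 20000 to under 40000. Models of neighbouring numbers were not tested for shared sequence, and no p is given.

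**Figure D5:**
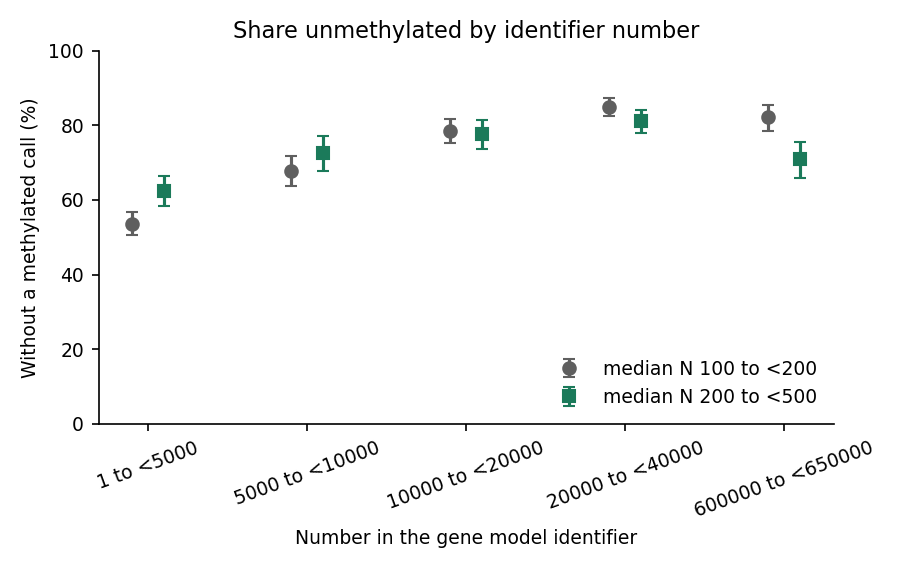
Percent of gene models of the coverage without a methylated call, by the number in the identifier and in 2 bands of median N; points are shares and bars exact 95% intervals. At both depths the share is lowest for numbers below 5000 (53.6% and 62.4%) and highest from 20000 to under 40000 (85.0% and 81.1%).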

How the data were processed

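For each of the 15 libraries the authors deposited 1 table of gene models with a position and raw counts of total calls (N) and methylated calls (X), as named in the file headers. X was deposited by the authors as estimated counts that need not be whole. Of them 27 missed a whole number by about 1e-14, and all were rounded. The submitters' processing notes name FastQC, Bismark 0.18.1 and Trim Galore 0.4.4. For settings, genome build, cytosine context and summing of positions, nothing is given in the sources used here. All tables were joined by identifier in Python 3.11.15 with pandas 2.3.3 and scipy 1.17.1. No normalization was applied and no sequence is printed.

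A library's lowest recurring methylated count was the lowest value in at least 5% of its methylated gene models. Intervals are exact Clopper-Pearson at 95%. Methylated shares in libraries that did not choose the gene models were compared with exact permutation tests. The permutation tests planned for coverage and calls are not reported, because N chose the gene models. The averages over sets of libraries were computed in closed form. The code of the rule and tests was run on simulated data. Models planted there without methylation are found by construction, so this checks the code and not how well the rule separates the models. Replicate numbers follow the order of the samples and pair nothing. Named gene models are the 5 with most calls, the 3 with most calls among those covered in all 15 libraries, 2 on each side of each depth limit (given here as counts) and the 3 with the lowest level among models methylated in 1 library. The members, lists and tests were chosen with earlier results of these data known. The settings varied were coverage, depth and library minimums, low methylated counts, doubled or moved gene models, title bands and each library left out.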

Additional observations from a re-analysis of the deposited data

How the results depend on the processing

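The count of 4334 never-methylated models was 7543 with a median N of 50 or more, 1760 with 200 or more and 731 when 10 or more libraries had to be covered, and 3760 to 4393 with 1 library left out. Their share of 72.4% was 70.0% with no upper limit of N and 77.2% with methylated counts of 3 set to 0, and 71.8% to 73.5% with 1 library left out. The difference in coverage between the labels kept its sign in all 28 alternatives and ran from -12.5 (without control replicate 3) to -5.24 percentage points with 1 library left out. That in the share of calls, -0.155, was -2.48 with 4 or more covered libraries and turned to 0.631 with no upper limit, 0.558 with 10 or more libraries and 0.0635 without gene models at 2 positions. With 1 library left out it ran from -1.28 (without control replicate 3) to 0.347, above 0 without control replicate 1 (0.347) or salinity replicates 2 (0.0489), 3 (0.136), 7 (0.148) or 12 (0.290). The difference in newly methylated models, -0.119, was -0.849 with 10 or more libraries and turned to 0.0743 with no upper limit and 0.0792 with counts of 3 set to 0, and ran from -0.752 (without control replicate 3) to 0.220 (without control replicate 2) with 1 library left out. Without salinity replicates 11 and 12, chosen after the data were seen like the setting without the 4 libraries of lowest count 4, these 2 differences were 0.120 and 0.169. The difference of -23.3 between models unmethylated and methylated in controls ran from -27.8 to -18.4 over 25 alternatives and was below 0 in each. The causes were not tested. Pairing by replicate number was not possible because the labels give none. With permutation within title bands the exact p for newly methylated models was 0.792, and over all alternatives it ran from 0.109 to 0.962. Depth limits what a 0 can show. The nominal smallest levels given above, for the deepest covered library of each model and for all covered listings, are no detection limit.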
